A study of Vitis vinifera with 2 samples.

Results

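ChIP-seq recovers DNA bound to a tagged protein and locates it as peaks, stretches where the precipitated library holds more fragments than its control. The regions described here are intergenic peaks beyond the end of a gene, from a list of binding of the grapevine transcription factor VlbZIP30. A peak was taken where its annotation was intergenic and its centre lay from 1 to 10000 bp downstream of the nearest transcription start site (TSS). Of the 49173 peaks in the list, 3424 met this rule, or 6.96% (95% Wilson interval 6.74 to 7.19%). They were 21.4% of the 15989 intergenic peaks and had 2469 nearest genes among the 20152 in the list.

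Both libraries came from leaves of Vitis vinifera that overexpressed VlbZIP30 fused to 3 FLAG copies under the CaMV35S promoter, which drives expression in most plant tissues. The plants were 4 months old and had gone 20 days without water. The anti-FLAG library had been precipitated with the M2 antibody. The control is titled input while its antibody field names IgG, and the sources used here do not settle which it was. There was 1 library in each group, with no watered and no untagged plants among the samples analysed here, so no comparison over samples could be tested, and signal without the tagged protein cannot be told apart from VlbZIP30 binding. Whether the plants were of 1 transgenic line or were pooled is not given in the sources used here.

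VlbZIP30 belongs to the basic leucine zipper (bZIP) family, whose members bind DNA as dimers, commonly at elements with an ACGT core. Several plant bZIP factors act in responses to abscisic acid, the hormone that rises when plants lack water. Transcription factors are most often studied at promoters, but enhancers and other control elements also occur downstream of plant genes. The list gives gene identifiers without names, so the regions are given by position and only 2 identifiers are printed. The genome build is not named in the sources used here, and no sequence was read.

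That the centres lie past the gene follows from the rule and was not tested. For the 1361 peaks whose nearest gene also had an exon or intron peak of its own, the smallest distance between the centres was 1144 bp. The list keeps the stretch around a gene's end in a class of its own, the transcription termination site (TTS) class, here called gene-end peaks. Where the same gene had a gene-end peak, which was the case for 1122 peaks, the intergenic peak lay a median of 1916.5 bp beyond it, with a range of 453 to 9171 bp. The rule describes the centre only. Of the 3424 peaks, 11 were long enough to reach back over the whole gene and cover its TSS, and all 11 were at least 3494 bp long.

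Of these peaks, 65.5% lay from 2001 to 6000 bp beyond the TSS. The median distance was 4599 bp (quartiles 3195 and 6390.5 bp), the fullest 1 kb ran from 3001 to 4000 bp with 667 peaks, and the last, from 9001 to 10000 bp, held 166. On the other side of the gene, 10537 intergenic peaks lay within 10 kb upstream of their nearest TSS, at a median of 2825 bp. The first 1 kb that could hold intergenic peaks on both sides, from 1001 to 2000 bp, had 171 downstream and 3301 upstream. The gene itself separates a downstream peak from its TSS, so the 2 counts do not compare how densely the sides were occupied.

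**Figure D1:**
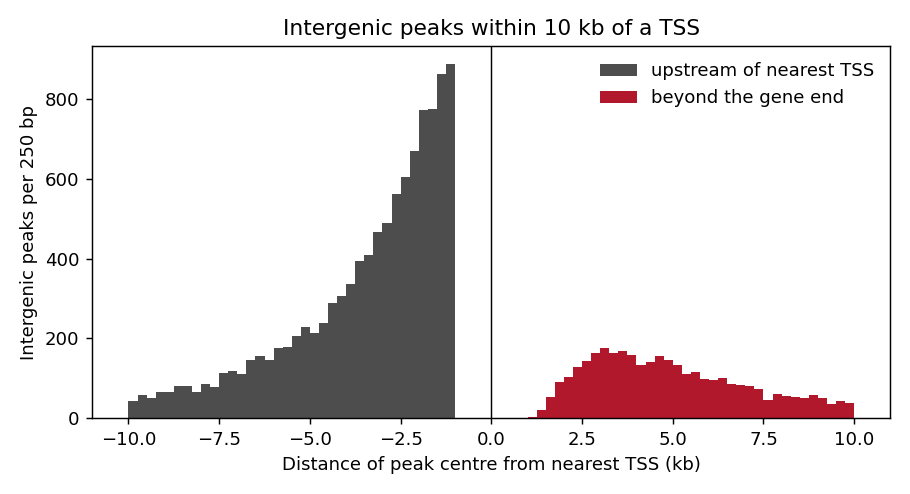
Number of intergenic peaks per 250 bp (vertical axis) against the signed distance of the peak centre from its nearest TSS in kb (horizontal axis), upstream in grey and beyond the gene end in red. The 3424 red peaks are most frequent from 3001 to 4000 bp, while the 10537 grey peaks are most frequent next to the 1 kb limit of the promoter class.

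The score that the authors gave each peak was at the level of the whole list and below that of upstream intergenic peaks. The deposited score ran from 1.30 to 128 among the peaks beyond the gene end, with a median of 7.85 (95% binomial interval of the median 7.56 to 8.12) and quartiles of 4.08 and 17.2. The median was 7.56 over all peaks, 10.5 (10.5 to 11.1) for upstream intergenic peaks within 10 kb, 5.98 (5.98 to 6.49, n = 3614) for gene-end peaks nearest their own TSS and 12.8 for promoter peaks. The peaks beyond the gene end thus stood between gene-end peaks and upstream intergenic peaks. Intervals here cover counting error only, and peaks are not replicates.

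High scores were no more frequent than in the list at large. Of the peaks beyond the gene end, 785, or 22.9% (21.5 to 24.4%), scored above 18.5, the upper quartile of the list, against 24.9% of all peaks and 32.4% (31.5 to 33.3%) of upstream intergenic peaks. At the low end, 23.3% (21.9 to 24.8%) scored at or below the list's lower quartile of 3.64, against 26.6% of all peaks and 16.8% (16.1 to 17.5%) of the upstream ones.

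The lower median remained at like distance up to 9000 bp, with separate intervals up to 5000 bp. In each 1 kb of distance from 1001 to 9000 bp the median score was lower beyond the gene end than upstream, for example 7.54 against 10.5 from 2001 to 3000 bp. From 5001 to 8000 bp the intervals of the 2 sides overlapped. The medians from 7001 to 8000 bp were 8.68 (7.56 to 10.5) and 9.26 (8.24 to 10.7). From 8001 to 9000 bp the intervals met at 8.68. From 9001 to 10000 bp, where 166 and 218 peaks remained, it was 9.22 against 8.68, with intervals of 6.98 to 11.96 and 7.02 to 11.7. Weighted by the number of downstream peaks in each bin, the median was lower by 2.30 score units at like distance, written as -2.30 downstream minus upstream. Among the peaks beyond the gene end the score hardly moved with distance. Bin medians ran from 7.02 to 9.22 without order, and Spearman's rho between score and distance was 0.0398 over the 3424 peaks, which share 1 library pair.

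**Figure D2:**
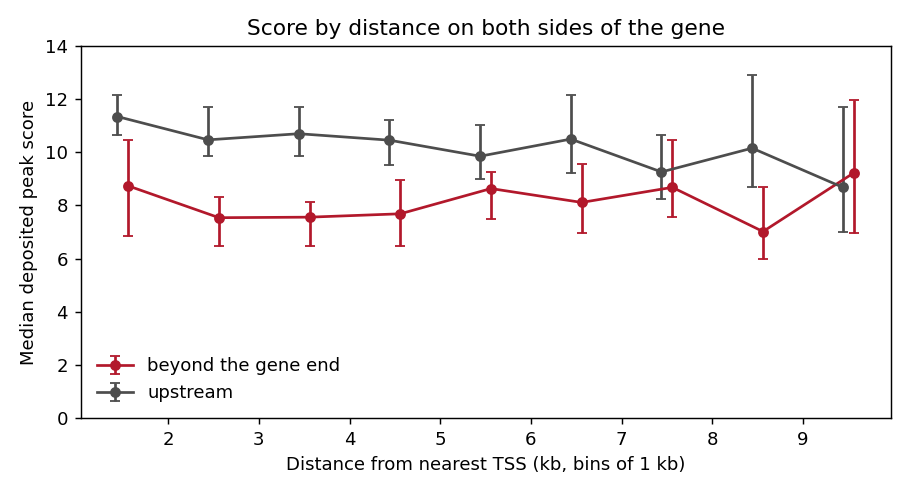
Median deposited score (vertical axis) in bins of 1 kb of distance from the nearest TSS (horizontal axis), beyond the gene end in red and upstream in grey; bars are 95% binomial intervals of the median. The red medians lie between 7.02 and 9.22 and are below the grey ones in 8 of 9 bins.

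The difference also remained at like length. The median length was 502 bp beyond the gene end (95% interval 487 to 520 bp, quartiles 316 and 868 bp) and 509 bp (500 to 517 bp) upstream. Longer peaks had higher scores on both sides, with a Spearman's rho of 0.647 over the peaks beyond the gene end and 0.667 over the upstream ones. When all peaks were split into 4 length classes at the quartiles of the list, peaks of 910 bp or more had a median of 20.3 (18.5 to 21.9) beyond the gene end and 27.0 (26.2 to 28.1) upstream. Peaks of 196 to 319 bp had medians of 3.64 (3.63 to 3.91) and 4.08 (4.08 to 4.44). At like distance and length the difference was -3.46, with the downstream median lower in 34 of 36 combinations of distance and length.

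The lower level was not confined to a few chromosomes. On 19 of 19 numbered chromosomes the median score was lower beyond the gene end than upstream, by 0.94 on the chromosome with the smallest gap. At like distance, the difference ran from -5.37 on chromosome 2 to -0.73 on chromosome 17. At like distance and length it ran from -6.50 on chromosome 2 to -0.53 on chromosome 12. Median scores beyond the gene end ran from 6.49 on chromosome 12 to 9.26 on chromosome 7, and the intervals of these 2 chromosomes overlapped (4.65 to 9.57 and 7.56 to 12.3).

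**Figure D3:**
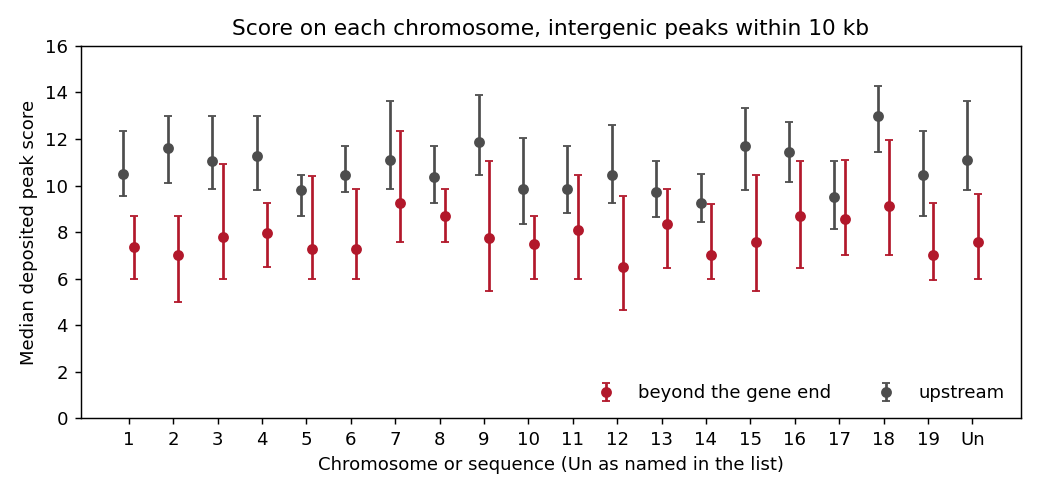
Median deposited score (vertical axis) of intergenic peaks within 10 kb on each numbered chromosome and on the sequence named Un (horizontal axis), beyond the gene end in red and upstream in grey; bars are 95% binomial intervals of the median. Red lies below grey on all 19 numbered chromosomes and on Un, although many intervals overlap.

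The same order held within genes. There were 346 genes with exactly 1 intergenic peak beyond their end and exactly 1 within 10 kb upstream. The upstream peak scored higher at 204 of them, or 59.0% (53.7 to 64.0%), the downstream peak at 139, and the 2 were equal at 3. Median scores were 7.54 downstream and 11.9 upstream, and the median difference within a gene was -2.65, downstream minus upstream. The upstream peaks were nearer the TSS (median 2202.5 against 4035.5 bp) and longer (639.5 against 527 bp). At the 74 of these genes where the downstream peak was the nearer one, it scored higher at 29, or 39.2% (28.9 to 50.6%). Spearman's rho between the 2 scores was 0.0436 over the 346 genes.

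Most of these peaks had a nearest gene with other peaks as well, of several classes. The nearest gene had another intergenic peak, on either side, for 68.5% (67.0 to 70.1%) of the 3424 peaks. The matching share for upstream intergenic peaks is not given here. The nearest gene had a promoter peak for 1713, or 50.0% (48.4 to 51.7%), against 55.1% (54.1 to 56.0%) for upstream intergenic peaks. Counted over genes, 49.1% (47.2 to 51.1%) of the 2469 had a promoter peak, against 58.3% (57.6 to 59.0%) of all 20152 genes in the list, some of which are listed through that peak alone. A gene-end peak was present for 32.8% (31.2 to 34.4%) and 32.5% (31.6 to 33.4%). An exon peak was present for 29.6% (28.1 to 31.2%) and 34.8% (33.9 to 35.7%), and an intron peak for 15.0% (13.9 to 16.3%) and 27.7% (26.8 to 28.5%). Counted over genes, 32.6% of the 2469 had a gene-end peak, against 29.4% of all 20152 genes in the list. For exon peaks the shares were 29.1% and 29.3%, and for intron peaks 14.9% and 26.2%. A gene with a peak beyond its end but within 10 kb of its TSS must be shorter than that, which the upstream peaks do not require. Gene lengths were not used, and whether this limit bears on the exon, intron and gene-end shares was not tested. Among the 2469 genes, 909 (36.8%) also had an intergenic peak within 10 kb upstream.

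Where a gene had both, its promoter peak usually scored higher. Of 848 genes with exactly 1 peak beyond their end and a promoter peak, the distal peak outscored the promoter at 287, or 33.8% (30.7 to 37.1%). Median scores were 7.56 for the distal and 15.0 for the promoter peak, with median lengths of 532 and 812.5 bp. At 2224 genes with 1 upstream intergenic peak and a promoter peak, the intergenic peak was higher at 41.1% (39.0 to 43.1%). Spearman's rho between the distal and the promoter score was -0.0281 over the 848 genes. At 313 genes with exactly 1 promoter, 1 gene-end and 1 distal peak, medians were 17.8, 7.02 and 7.02, and the promoter peak was the highest at 184, the distal peak at 74 and the gene-end peak at 52, with ties at 3.

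**Figure D4:**
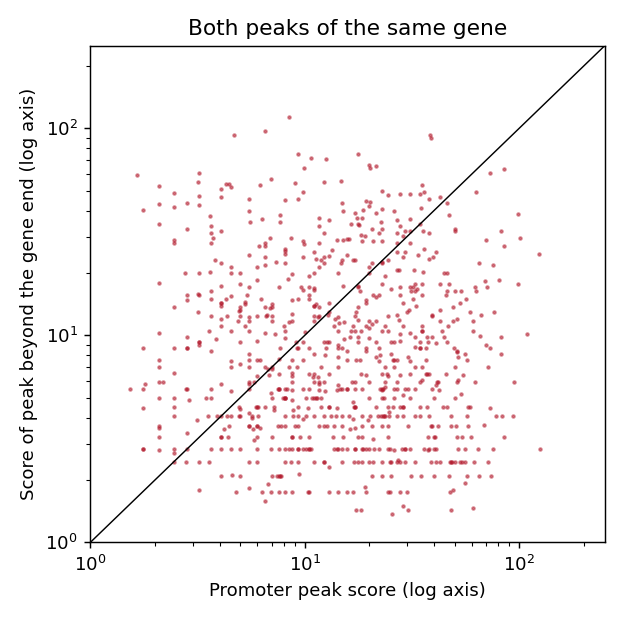
Deposited score of the intergenic peak beyond the gene end (vertical log axis) against that of the promoter peak of the same gene (horizontal log axis) for the 848 genes with exactly 1 such intergenic peak; where a gene had more than 1 promoter peak, the higher score is plotted. The line marks equal scores, and 287 genes lie above it.

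The next gene beyond the peak lay on either strand. Peaks of 1 gene fix its TSS and strand in the list where it has 2 or more peaks, and 3109 of the 3424 peaks belonged to such genes. For 3108 of them another TSS fixed in this way lay further along. In 1386 cases, or 44.6% (42.9 to 46.3%), the next gene was on the opposite strand, so that the peak lay beyond the ends of both genes (a convergent pair), and in 1722 it was on the same strand (a tandem pair), so that the peak also lay upstream of the next gene. Over all 12824 genes with a further fixed TSS, 47.9% (47.0 to 48.8%) had a convergent neighbour. This share counts genes, while the 44.6% counts peaks, with a gene entering once for each of its peaks, so the 2 are not strictly alike. Genes that the list does not fix may lie between.

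Scores in the 2 arrangements lay close together. Medians were 8.16 (7.65 to 8.74) in tandem and 7.56 (6.49 to 8.12) in convergent pairs, with overlapping intervals, and 23.4% and 23.3% scored above the upper quartile of the list. The tandem median was the higher on 16 of 19 chromosomes. With the next TSS within 10 kb, the medians were 8.64 (7.03 to 9.85, n = 631) and 7.56 (6.49 to 8.44, n = 512). Median lengths were 519.5 and 514.5 bp. In both arrangements the medians stayed under the 10.5 of upstream intergenic peaks, although a tandem peak is itself upstream of a gene. The distances were unlike, however. Tandem peaks lay a median of 12539.5 bp from the next TSS, and 7003 bp where it was within 10 kb, against 2825 bp for upstream intergenic peaks. Upstream intergenic peaks at 7001 to 8000 bp had a median of 9.26 (8.24 to 10.7), an interval that overlaps that of the near tandem peaks.

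These peaks lay about as close to another peak as peaks of the whole list did. The median gap to the nearest other peak was 711.5 bp (680 to 740 bp) from edge to edge, against 711 bp over all peaks and 708 bp for upstream intergenic peaks. No gap was under 197 bp, which was also the smallest gap over all peaks. The nearest other peak belonged to the same gene for 78.2% (76.8 to 79.6%), was itself an intergenic peak beyond a gene end for 41.5% (39.9 to 43.2%), and was a gene-end peak for 21.4% (20.1 to 22.8%). Matching shares for upstream intergenic peaks or all peaks are not given here, so whether these are particular to the set was not tested. Within 500 bp of another peak lay 1254, or 36.6% (35.0 to 38.3%), against 35.5% (34.6 to 36.4%) of upstream intergenic peaks. Their median score was 9.24 and their median length 635.5 bp. Over 5 kb from any other peak lay 321, or 9.4% (8.44 to 10.4%), against 7.75% (7.26 to 8.28%) of upstream intergenic peaks. Their medians were 6.70 and 339 bp. For 315 peaks, or 9.20% (8.28 to 10.2%), the peak was the only one of its gene, so the gene entered the list through it alone; their median score was 7.56. The share of upstream peaks that were the only one of their gene was 8.30% (7.79 to 8.85%).

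Most of these genes were followed by a single such peak, and some by several. A single one was found at 1785 genes and 2 or more at 684, or 27.7% (26.0 to 29.5%), including 488 with 2, 139 with 3 and 57 with 4 or more. The matching share for upstream intergenic peaks is not given here. In total the 3424 peaks had 2469 nearest genes, against 6792 for the 10537 upstream intergenic peaks and 20152 for all 49173 peaks. At the 488 genes with 2, the peak nearer the TSS was higher at 254, the farther at 232, and 2 pairs were equal. Their median spacing was 1454.5 bp between centres, and their scores were weakly related (Spearman's rho 0.164). Peaks of 1 gene share their surroundings and are not independent.

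The most, 7, followed VIT_08s0007g05610, whose plus-strand TSS is at 19501750 on chromosome 8. They ran from 19504907 to 19511427. The nearest to the TSS, at 3567 bp, scored 8.68. The next, at 5093 bp (19506602 to 19507085), scored 27.7 and was the highest of the 10 peaks assigned to this gene. Those at 5733, 6388 and 7130 bp scored 8.68, 13.7 and 15.0, and the last 2, at 8162 and 9389 bp, scored 8.12 and 3.64. The promoter peak of the gene (19501284 to 19501649) scored 6.49, so 6 of the 7 distal peaks stood above it. The next fixed TSS, of a gene in the same orientation, lay 28231 bp beyond the last of them.

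**Figure D5:**
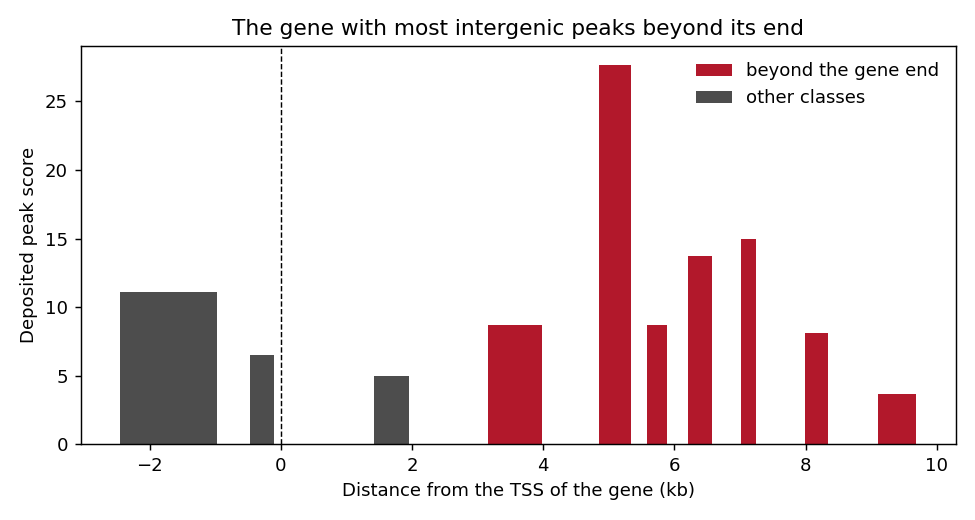
Deposited score (vertical axis) of the 10 peaks assigned to VIT_08s0007g05610, drawn to scale along the distance from its TSS in kb (horizontal axis; dashed line, TSS), with the 7 intergenic peaks beyond the gene end in red. The highest red bar is the peak that scored 27.7, and the promoter peak just left of the dashed line scored 6.49.

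The highest score beyond a gene end was 128. This peak, on chromosome 10 (14816646 to 14818000), was 1355 bp long and had its centre 3182 bp from the plus-strand TSS of VIT_10s0042g01070 at 14814141. It ranked 21 in the whole list and 4 among intergenic peaks. Only 420 bp separated it from a peak of 3013 bp (14813213 to 14816225) that was classed as exon, covered the TSS and scored 141. Beyond the gene, 2 more intergenic peaks followed within the 10 kb, at 5668 bp (14819467 to 14820152) with a score of 44.4 and at 9994 bp (14822276 to 14825994) with 51.1. The next fixed TSS was 184979 bp from the highest peak. All 4 of these neighbouring peaks were thus above the upper quartile of the list. Upstream, the gene also had intergenic peaks at distances of -8765 and -12384 bp, which scored 5.48 and 38.4.

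The other 9 of the 10 highest scores ran from 104 to 125. On chromosome 17, a peak of 2237 bp (6747079 to 6749315) scored 114 and lay 5803 bp from its TSS and 5847 bp before the next, in tandem, so that the 2 genes were almost equally near. The promoter peak of the first of these genes scored 8.44. On chromosome 9, a peak of 924 bp (12062516 to 12063439) scored 113, 251 bp from a gene-end peak that scored 33.8. On chromosome 14, a peak of 681 bp (29710242 to 29710922) scored 107, and 6 other peaks of its gene reached 51.8 at most.

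Further down this order, a peak of 617 bp on chromosome 19 (2547457 to 2548073) scored 107, and the promoter peak of its gene scored 43.4. On chromosome 8, a peak of 2146 bp (9824770 to 9826915) scored 105 and was the nearest to its TSS of the 10, at 1835 bp. On chromosome 16, a peak of 2309 bp (19317630 to 19319938) scored 104, while the promoter peak of its gene scored 6.83. Of the 10 peaks, 3 had a nearest gene with a promoter peak, all 3 scoring below the distal peak. The 10 were chosen as the highest scores, and the upper quartile of promoter peaks was 25.4, so this order largely follows from the choice.

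The remaining 3 of the 10 lay on the sequence named Un, and 2 of these were short. They were a peak of 1059 bp (30818643 to 30819701) with a score of 125, one of 234 bp (17114941 to 17115174) with 116 and one of 251 bp (40612625 to 40612875) with 110, which was the only peak of its gene. Among the 883 peaks beyond a gene end that were shorter than 320 bp, 14 scored above the upper quartile of the list, and 116 was the highest. Of these 14, 4 were on Un. The whole set was also more frequent there, at 9.94% (8.75 to 11.3%) of the 2194 peaks on Un against 6.82% (6.60 to 7.06%) of those on the numbered chromosomes.

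Peaks of 3 kb or more numbered 127, or 3.71% (3.13 to 4.40%), against 2.73% (2.44 to 3.06%) of upstream intergenic peaks, 3.60% (3.04 to 4.26%) of gene-end peaks nearest their own TSS and 2.44% of all peaks. Their median score was 32.8. Chromosome 18 held 24 of them, which were 10.9% (7.41 to 15.6%) of its 221 peaks beyond a gene end. On all other sequences the share was 3.22% (2.66 to 3.88%), and on chromosome 16 none of 139 was this long. These chromosomes were picked as the highest and lowest of the numbered ones. The share among all peaks of chromosome 18 is not given here. Whether the excess is particular to peaks beyond a gene end was therefore not tested. The longest, of 13555 bp (chromosome 18, 11978828 to 11992382), had a modest score of 13.1 and covered its own gene, whose TSS was 2317 bp from its centre. The next 4 were one of 12200 bp on chromosome 18 (5342197 to 5354396, score 52.0), which also covered its gene's TSS, one of 8150 bp on Un (29049633 to 29057782, score 57.8), one of 7906 bp on chromosome 18 (3541444 to 3549349, score 39.8) and one of 7863 bp on chromosome 4 (17423912 to 17431774, score 63.0), which covered its gene's TSS too.

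Between chromosomes, the share of peaks that lay beyond a gene end ran from 5.84% (5.14 to 6.64%) on chromosome 18 to 8.14% (7.02 to 9.41%) on chromosome 17. The fullest window of 1 Mb, on chromosome 1 from 3000001 to 4000000, held 33 of them among 277 peaks.

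The limit of 10000 bp left out 859 of the 4283 downstream intergenic peaks. The 3 peaks listed on either side are too few to show whether the values changed there. The 3 peaks just inside it, at 10000, 9994 and 9975 bp, scored 6.76, 51.1 and 5.48. The 3 just outside, at 10009, 10016 and 10050 bp, scored 4.08, 22.4 and 3.64. The 859 intergenic peaks beyond the limit had a median score of 8.12 and a shorter median length of 400 bp. At the short end, the smallest distances were 1083, 1233 and 1236 bp, with scores of 33.0, 21.0 and 2.45, and the first of these peaks was 3494 bp long and covered its gene.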

How the data were processed

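The tools BWA, MACS2 and HOMER are listed in the submitters' processing notes. What each did, its version and settings, and the genome build and gene annotation are not stated in the sources used here. The authors' list holds peaks of FLAG over input. Per the file headers, every peak has coordinates, a score, an annotation, the distance to its nearest TSS (signed, and measured from the centre) and an identifier for that TSS's gene. The headers do not say on which scale the deposited score is; it started at 1.30142 and served only for comparisons within the list. No read counts were used, so depth is unknown.

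From these, shares were given with 95% Wilson intervals and medians with 95% binomial intervals. TSS and strand came from genes with 2 or more peaks. Differences at like distance are differences of medians in 1 kb bins (and 4 length classes), each with 3 or more peaks per side, weighted by the downstream peaks. No p-value was computed. Regions were named by rule: the 10 highest scores, the 5 longest, the gene with most, and 3 on either side of the limits. The peaks and comparisons were chosen with earlier results of these data known. The functions were tested on simulated data. Computations were run in Python 3.11.15 (pandas 2.3.3, numpy 2.4.6, scipy 1.17.1), and plots were drawn with matplotlib 3.10.9. Of the 20152 identifiers, 0 matched the RefSeq table of 29591 genes. With no genome used here, the planned search for the ACGTG core was not run.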

Additional observations from a re-analysis of the deposited data

How the results depend on the processing

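Of 37 alternative values for 11 results, 27 stayed within the interval of the reported value, or within 1 SD over chromosomes for differences, and 10 moved. The score differences from upstream peaks kept their sign. All other results are shares, medians and gaps, which cannot be negative, so a change of sign was not possible for them. With the highest-scoring quartile group alone, the peaks made up 6.41% of the list, their median length was 1019 bp, 47.9% had a promoter peak at the nearest gene and the median gap to another peak was 577 bp. With peaks under 1 kb, the median score was 5.98. With no upper limit on distance, the median length was 478 bp, the share with a promoter peak 47.9%, that with a gene-end peak 30.2% and the median gap 799 bp. With a limit of 5 kb, the median gap was 652 bp. The cause was not tested. The score difference from upstream peaks ran from -2.92 to -2.20 at like distance and from -3.87 to -2.64 at like distance and length. The ACGTG alternative was not run. No paired analysis was possible because there is a single library per group, and for the same reason no replicate could be omitted. Without depths, how sequencing limits the calling of weak peaks was not tested.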

Other observations

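Genes with ENSRNA identifiers, which the list names apart from the VIT genes, were nearest to 101 of the peaks beyond a gene end, at 76 genes. These peaks lay closer to the TSS than the whole set, at a median of 2714 bp, and had a median score of 10.4 (95% binomial interval 6.49 to 14.2), against 7.73 (7.56 to 8.12) next to VIT genes. The intervals overlap.

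Short peaks with high scores were few on both sides of the gene. Of peaks shorter than 320 bp, 1.59% (0.947 to 2.64%) of those beyond a gene end and 2.36% (1.83 to 3.04%) of those upstream scored above the upper quartile of the list. Of these, 4 of 14 and 6 of 58 were on the sequence named Un, which held 7.36% and 4.68% of all such short peaks on the respective side. The cutoff in length was chosen as a quartile of the list, and the look at Un followed from the positions of the highest scores.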
